A study of Mus musculus with 2 samples.

Results

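The clustered protocadherin genes were examined for R-loop peaks in primary neural stem/progenitor cells (NSPCs). The members were the protein-coding genes of the GENCODE M1 annotation of mm9 whose symbols start with Pcdha, Pcdhb or Pcdhg, and they numbered 24 of 22367 protein-coding genes. All 24 lie on the plus strand of chromosome 18. Of them, 1 member, the Pcdhg gene model, contained R-loop peaks, compared to 39.6% of all protein-coding genes, and the Pcdha and Pcdhb members contained 0. Most members, 21 of 24, are short Pcdhb genes, and the share among single-exon protein-coding genes was 5.87%.

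The NSPCs were cultured from the frontal brain of C57BL/6 mice at postnatal day 7. The labels name no treatment, but by the methods of the study the cells had received 0.5 μM aphidicolin, which inhibits DNA polymerases, over 48 h. No list from untreated NSPCs was analysed here. DRIP-seq sequences restriction fragments that the S9.6 antibody, which binds RNA:DNA hybrids, pulls down. The data are 1 list of 22132 peaks, made from 3 biological replicates, which gives the position of each peak on mm9 and holds no signal or read count. Every value below is therefore a description of 1 list, without replicate error and with unknown depth, and no test between conditions was possible. The label of the cells was compared with marker genes: of 8 neural stem and progenitor markers, 6 contained a peak, among them Sox2, Nes and Vim, while Pax6 and Fabp7 contained 0, and the share among all protein-coding genes was 39.6%. Of the 3 neuronal markers found in the annotation, Tubb3, Rbfox3 and Dcx, 0 contained a peak, and in the astrocyte, oligodendrocyte, microglia and endothelium lists 3, 2, 2 and 1 of 4 genes did.

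Clustered protocadherins are cell surface adhesion proteins that give neurons individual identities and are known for their part in self-avoidance of dendrites. Each variable exon has a promoter of its own and encodes the extracellular cadherin repeats, the membrane span and the start of the cytoplasmic tail. In the Pcdha and Pcdhg clusters, the chosen variable exon is spliced to constant exons that are shared by the whole cluster, whereas each Pcdhb gene has a single coding exon and no constant exon. Most variable exons are chosen at random in each neuron, with the help of CTCF and cohesin, and the C-type exons at the end of the Pcdha and Pcdhg clusters are used more evenly between neurons. R-loops form where nascent RNA anneals to its DNA template, and G-rich sequence on the non-template strand favours them.

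In GENCODE M1, most of the Pcdha isoforms are joined in a single gene model, Pcdha11 (ENSMUSG00000007440), of 257 kb from 37089939 to 37347311, beside a separate short model, Pcdha3. The 21 Pcdhb members run from Pcdhb1, which starts at 37424652, to Pcdhb22, which ends at 37681073, and Pcdhb20 is left out since this annotation calls it a pseudogene. Pcdhg is a single model, Pcdhgc5 (ENSMUSG00000023036), of 168 kb from 37833989 to 38001527, which annotates 9 variable exons from that of Pcdhga3 to that of Pcdhgc5. Other Pcdhg isoforms, such as Pcdhga7, Pcdhgb4 and Pcdhga10, lie inside the span of this model without an annotated exon, and Pcdhga1 and Pcdhga2 lie upstream of it. Because these models hide or lack single isoforms, variable exons were also found from the mm9 sequence as reading frames of at least 2 kb on the plus strand. The search gave 14 frames in Pcdha, 24 in Pcdhb and 22 in Pcdhg. In Pcdhb, 2 frames without an annotated gene were left out, which left 22 there. The 58 frames kept were then as many as the 58 genes of these names in the RefSeq table. Frames in Pcdhb took the name of the gene they lie in, and frames in Pcdha and Pcdhg were named through the RefSeq table of GRCm38.p6, from the distance between the frame and the shared end of its cluster.

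The list held 10 peaks in the 3 clusters, all of them in Pcdhg. Pcdha held 0 peaks over 257.4 kb, and Pcdhb held 0 peaks over 256.4 kb. In Pcdhg, the 10 peaks covered 26.2 kb, or 15.6% of the gene model, and 9.41% when the widest peak was left out. Taken over the 3 clusters, 3.84% of the bases lay inside peaks, compared to 1.59% of the sequenced bases of chromosome 18 and 1.92% of those of the genome. This mean hides the split between the clusters, with 59.7 peaks per Mb in Pcdhg, 0 in the other two and 8.65 in the genome.

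**Figure D1:**
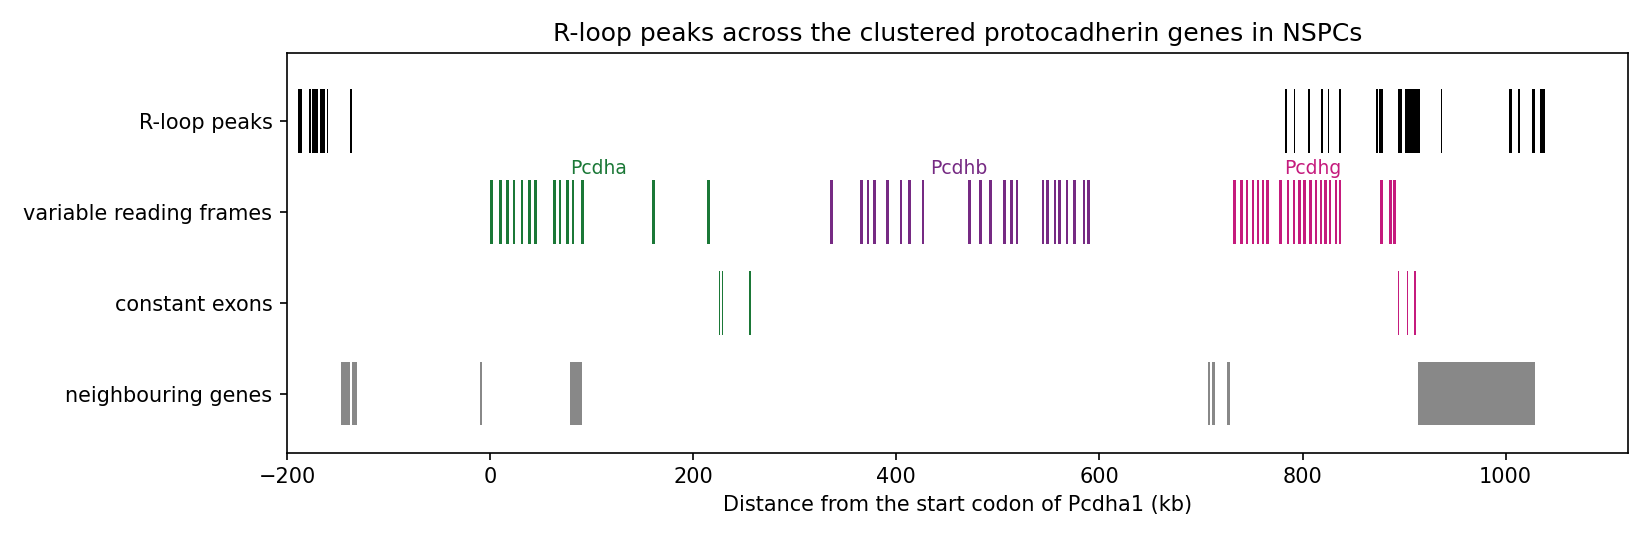
R-loop peaks, the 58 variable reading frames, the constant exons and neighbouring genes along chromosome 18, plotted by distance in kb from the start codon of Pcdha1. Bars narrower than 1.2 kb are widened to be visible, except for reading frames. The Pcdha and Pcdhb frames lie in an interval without peaks, and the 10 peaks of the clusters sit in the downstream part of Pcdhg.

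As annotated, 1 of 24 members (4.17%) contained at least 1 peak, while the share among all protein-coding genes was 39.6%. The Pcdhb members are short genes without long introns, and the share among all single-exon protein-coding genes was 5.87%. By a measure closer in size to a variable exon, 22.9% of the 695 coding segments of at least 2 kb in protein-coding genes overlapped a peak. Outside the clusters, 23.8% of 655 such segments did. Of the 40 variable exons that GENCODE M1 annotates, 3 (7.50%) did, and they divided into 0 of 10 in Pcdha, 0 of 21 in Pcdhb and 3 of 9 in Pcdhg. Over the reading frames, the count was 6 of 58 (10.3%), with 0 of 14 in Pcdha, 0 of 22 in Pcdhb and 6 of 22 (27.3%) in Pcdhg. Isoforms of a cluster share exons and sequence, and hence these counts do not come from independent genes. The start of an annotated gene lay inside a peak for 0 of the 24 members, compared to 14.9% of all protein-coding genes. Among their 46 annotated transcripts, 1 start lay inside a peak, that of the Pcdhg transcript that begins with the Pcdhgc3 exon.

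Single members of the first clusters lay far from any peak. In Pcdha, the nearest peak was 136 kb from the frame of Pcdha1, and the distance grew to 350 kb at Pcdhac2. In Pcdhb, it was 446 kb at Pcdhb1 and 192 kb at Pcdhb22, with the other frames between these values. In Pcdhg, it was 48.7 kb at Pcdhga1, 41.5 kb at Pcdhga2 and 3.38 kb at Pcdhga6. From Pcdhga8 on, the 8 frames without a peak lay from 0.348 kb (Pcdhga9) to 6.49 kb (Pcdhgc4) away from one.

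The peak-free interval over Pcdha and Pcdhb was 919 kb long, from 36954043 to 37872738. It began 136 kb before Pcdha1, within Zmat2, and ended 38.8 kb inside the Pcdhg gene model. It held 44 of the 58 frames, namely all of Pcdha and Pcdhb and the first 8 of Pcdhg, from Pcdhga1 to Pcdhga6. The median distance between neighbouring peaks of the list was 23.6 kb, and 493 of 22111 such intervals (2.23%), this one included, were at least as long, 16 of them on chromosome 18. The interval over the protocadherins held 28 protein-coding genes whole, and 31 intervals of the list, again including this one, held at least as many. The first of these by number of genes held 151 genes and was led by olfactory receptor genes of chromosome 2, and the fifth held 61 genes and was led by keratin genes of chromosome 11.

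**Figure D2:**
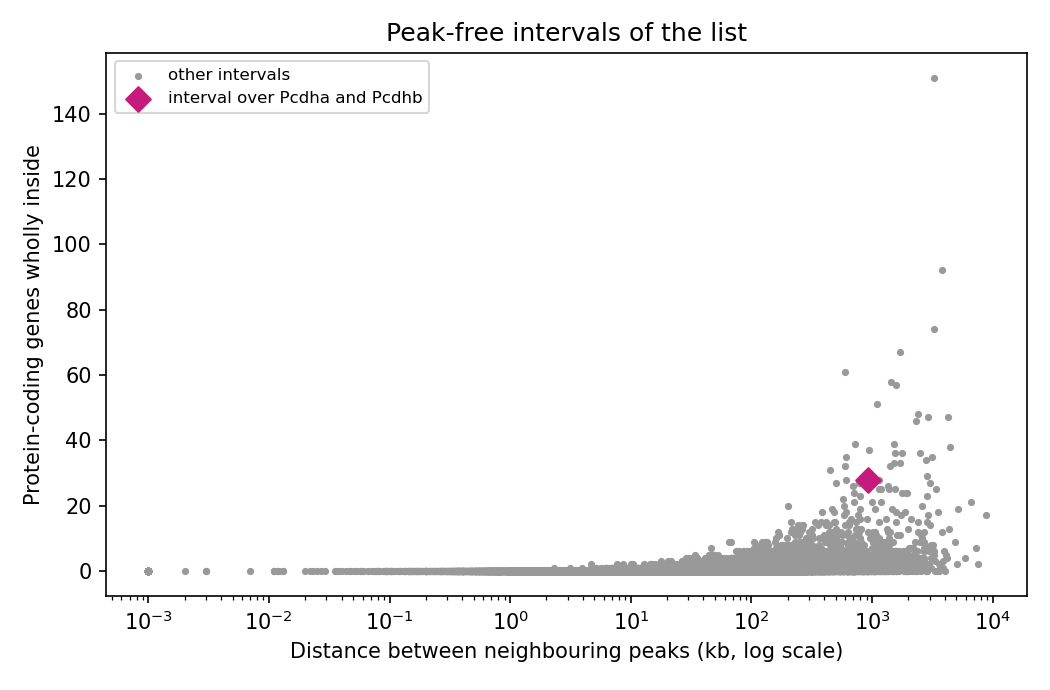
Each point is an interval between neighbouring R-loop peaks of the list, with its length in kb on a log scale and the number of protein-coding genes that lie wholly inside it. The interval over Pcdha and Pcdhb is 919 kb long and holds 28 genes, and 30 other intervals hold as many or more.

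The interval also covered genes that are no protocadherins. Taf7, which encodes a subunit of the general transcription factor TFIID, lies between Pcdhb and Pcdhg from 37800556 to 37803858 and contained 0 peaks. Slc25a2, a mitochondrial carrier gene next to it, contained 0 peaks as well, and so did 3222401L13Rik, Gm10545 and Gm6756. On both outer sides, peaks occurred at 30 per Mb over 200 kb. The 136 kb next to Pcdha1 belong to the interval without peaks, so that all peaks before Pcdha lay further out. The 200 kb before Pcdha held 6 peaks, which covered 10.4% of them, and 8 of the 9 protein-coding genes that lie there at least in part overlapped a peak. Among these, Zmat2 had its start inside a peak, and Hars2, which encodes the mitochondrial histidyl-tRNA synthetase, contained 1. The 200 kb after Pcdhg held 6 peaks, which covered 8.77%, and 4 of 5 protein-coding genes overlapped a peak. Of these 6 peaks, 1 is the widest Pcdhg peak, which crosses the end of the cluster and is also among the 3 of Diap1, so that 5 lay wholly outside Pcdhg. Diap1, the gene of a formin that nucleates actin filaments, contained 3 peaks with 1 at its start, the histone deacetylase gene Hdac3 contained 2, and in Rell2 a single peak covered 79.7% of the gene.

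In Pcdhg, the peaks began with the ninth frame, and 6 of the 14 frames from there on overlapped one. The stretch of 14 is set by the first peak itself. Over all 22 frames the share was 27.3%, compared to 22.9% of annotated coding segments of at least 2 kb and 23.8% of those outside the clusters. The frames were found from sequence, so that these measures are not alike. By type, 4 of 12 A-type frames, 1 of 7 B-type frames and 1 of 3 C-type frames of the whole Pcdhg cluster overlapped a peak. The gaps between neighbouring peaks ranged from 1.68 to 34.5 kb, with a median of 10.1 kb. The longest gap lay between Pcdhga12 and the C-type exons, where the annotation has no variable exon.

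**Figure D3:**
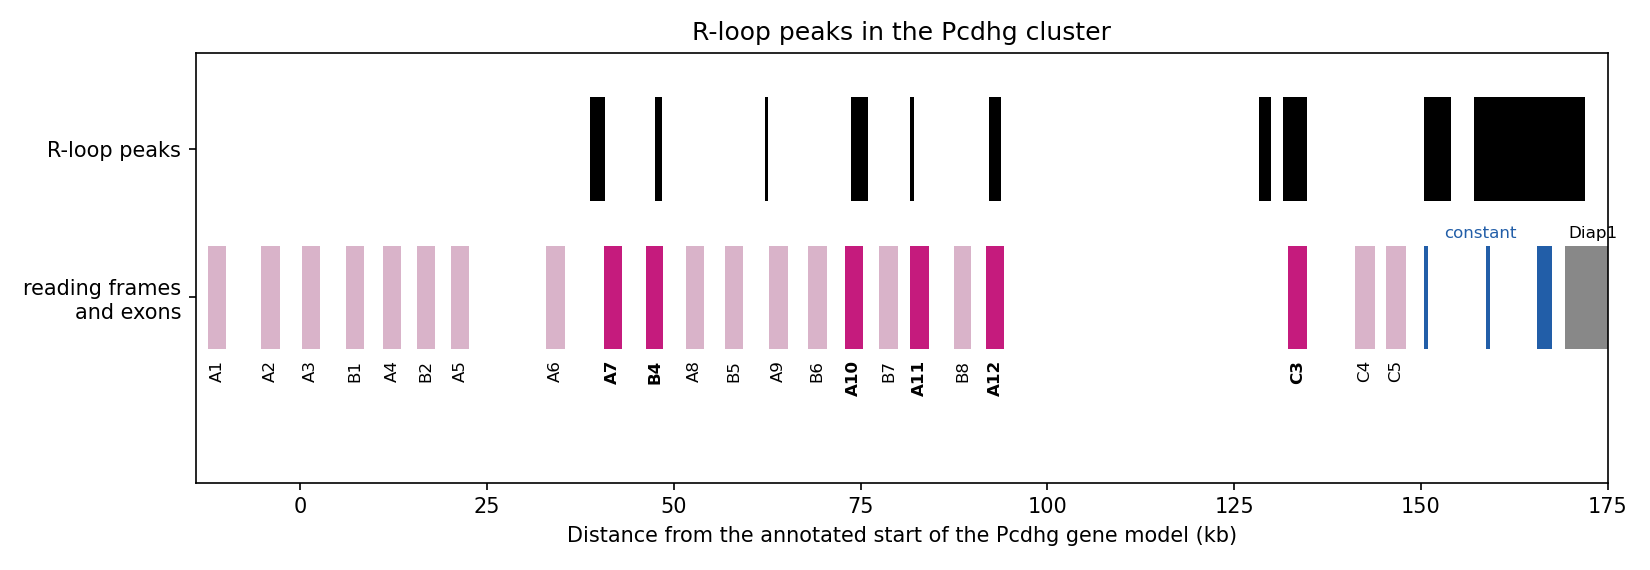
R-loop peaks (black), the 22 variable reading frames (dark where a peak overlaps, pale where none does), the 3 constant exons (blue) and the start of Diap1 (grey), by distance in kb from the annotated start of the Pcdhg gene model. Peaks narrower than 0.4 kb and constant exons narrower than 0.5 kb are widened to be visible. Peaks overlap the frames of Pcdhga7, Pcdhgb4, Pcdhga10, Pcdhga11, Pcdhga12 and Pcdhgc3, and a pair of peaks covers the 3 constant exons.

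Pcdhgc3, the first C-type exon of the cluster, had the largest share of its frame inside a peak. The frame lies from 37966202 to 37968814, and 95.7% of it fell in a 3.13 kb peak with the limits 37965570 and 37968701. Relative to the start codon, this peak reached from -632 to 2499 bp, so that it held the annotated transcript start, the start codon and nearly all of the coding sequence. Another peak, 1.63 kb wide from 37962264 to 37963889, lay 1.68 kb further upstream, outside any annotated exon. The other C-type frames of the cluster, Pcdhgc4 from 37975187 to 37977808 and Pcdhgc5 from 37979329 to 37981941, contained 0 peaks. Their nearest peaks lay 6.49 and 2.44 kb away. Likewise, Pcdhac1 and Pcdhac2, the C-type frames of Pcdha, contained 0 peaks, with the nearest at 296 and 350 kb.

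Among the A-type frames, Pcdhga12 from 37925771 to 37928206 had 65.5% of its frame inside a peak of 1.60 kb, from 37926209 to 37927803. The peak lay wholly within the frame, from 438 to 2032 bp after the start codon. Pcdhga10, from 37906842 to 37909316, had 63.0% inside a peak of 2.17 kb from 37907757 to 37909926. This peak began 915 bp after the start codon and ran past the end of the frame. In both genes, the start codon and the kilobase before it were outside peaks.

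The other overlaps were smaller. Pcdhgb4, the B-type frame with a peak, lies from 37880208 to 37882589 and had 42.0% of its length inside a peak of 1 kb, in the downstream part of the frame. Pcdhga11, from 37915595 to 37918099, had 17.7% inside a narrow peak of 0.444 kb, which began 46 bp after the start codon. Pcdhga7, from 37874596 to 37877034, shared 207 bp, or 8.49%, with a peak of 2.06 kb that lay mostly upstream and held the start codon. By the called limits, Pcdhga7 and Pcdhgc3 were therefore the ones of the 6 frames with the start codon inside a peak. The restriction fragments described below limit how finely such positions can be read. A peak of 0.131 kb ended 348 bp before the frame of Pcdhga9, which itself contained 0 peaks. Over Pcdhga10, Pcdhga11 and Pcdhga12, the peaks also overlapped Gm16882, a noncoding RNA gene annotated on the opposite strand from 37906213 to 37927896. A peak in a list without strand cannot be assigned to either gene.

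The constant exons, which the Pcdhg isoforms share, were inside peaks over their whole length. Constant exon 1, of 59 bp from 37984675 to 37984733, lay in a peak of 3.604 kb from 37984379 to 37987982. Constant exon 2, of 89 bp from 37992919 to 37993007, and constant exon 3, of 1971 bp from 37999557 to 38001527, lay in a single peak of 14.8 kb from 37991143 to 38005980. This was wider than 99.3% of the peaks in the list. It ran past the end of the cluster into the end of Diap1, which is transcribed from the other strand toward Pcdhg, and 69.99% of the peak lay inside the Pcdhg gene model. From constant exon 1 to the end of the gene, 81.3% of the bases were inside peaks, compared to 8.27% of the variable part before it. The corresponding constant exons of Pcdha, of 59, 89 and 2712 bp, were outside peaks, and the third of them, from 37344600 to 37347311, holds the end of the cluster. Counted by the middle of each peak, 0 constant exons held one.

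The 10 peaks ranged from 0.131 to 14.8 kb in width with a median of 1.85 kb, and the median of the whole list was 1.32 kb. Of the 10, 8 were at least 1 kb wide. Each peak was put in 1 class, in the order variable exon, constant exon, other annotated gene and space between. By the annotated exons, 3 peaks fell on variable exons, 2 on constant exons, 1 on Gm16882 and 4 in spaces between. When reading frames replaced annotated exons, the peaks at Pcdhga7, Pcdhgb4 and Pcdhga10 moved to variable exons, and the peak before Pcdhga9 and the one before Pcdhgc3 were left in spaces between.

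Because G-rich sequence favours R-loops, the composition of the frames was compared across the clusters. The GC content of the frames differed little, with medians of 53.3% in Pcdha, 51.3% in Pcdhb and 52.3% in Pcdhg. GC skew was taken on the coding strand as the difference of G and C counts over their sum, and it had a median of 0.0907 in Pcdha, from 0.00214 to 0.113 over 14 frames. In Pcdhb it had a median of -0.00411, and in Pcdhg of -0.028, with a highest value of 0.000742. All 6 frames with a peak had a negative skew, from -0.0457 to -0.00539. So had the 16 Pcdhg frames without a peak except Pcdhgb6, with a range from -0.0648 to 0.000742. Pcdha, whose frames had the highest median skew, held 0 peaks. In the kilobase before the start codon, the median skew was 0.0543 in Pcdha, 0.0468 in Pcdhb and 0.00457 in Pcdhg. Within Pcdhg, this upstream median was 0.00457 for frames with a peak and -0.00179 for frames without one. Whether skew has a part in where peaks lie was not tested. The peaks are not limited to frames. Over the 10 peaks themselves, the skew on the coding strand of Pcdhg was positive in 5 and negative in 5, from -0.120 to 0.516. The highest value came from the peak of 0.131 kb before Pcdhga9. Gm16882 and Diap1, which some of the peaks also overlap, lie on the other strand. Skew was 0.118 in the peak at Pcdhga7 and 0.0962 in the peak at Pcdhga11, opposite in sign to these frames as a whole. It was negative in the peaks at the 4 other frames. Among coding segments of at least 2 kb in other genes, the median skew was -0.00817 in the 156 with a peak and -0.0196 in the 499 without one.

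CpG dinucleotides are depleted in most of the mouse genome, and the ratio of observed to expected CpG shows where they persisted. It had a median of 0.660 in the Pcdha frames, 0.438 in the Pcdhb frames and 0.535 in the Pcdhg frames. Within Pcdhg, the frames with a peak had a median of 0.628, with a range from 0.397 to 0.770, and the frames without one had a median of 0.481, with a range from 0.366 to 0.768. The ranges overlapped over nearly their whole extent. In the kilobase before the start codon, the medians were 0.644 with a peak and 0.369 without one, and these ranges, from 0.309 to 0.831 and from 0.163 to 0.676, overlapped as well. Among coding segments of other genes, the medians were 0.353 with a peak and 0.312 without one. Frames are paralogs of each other, and no test was made on these differences.

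**Figure D4:**
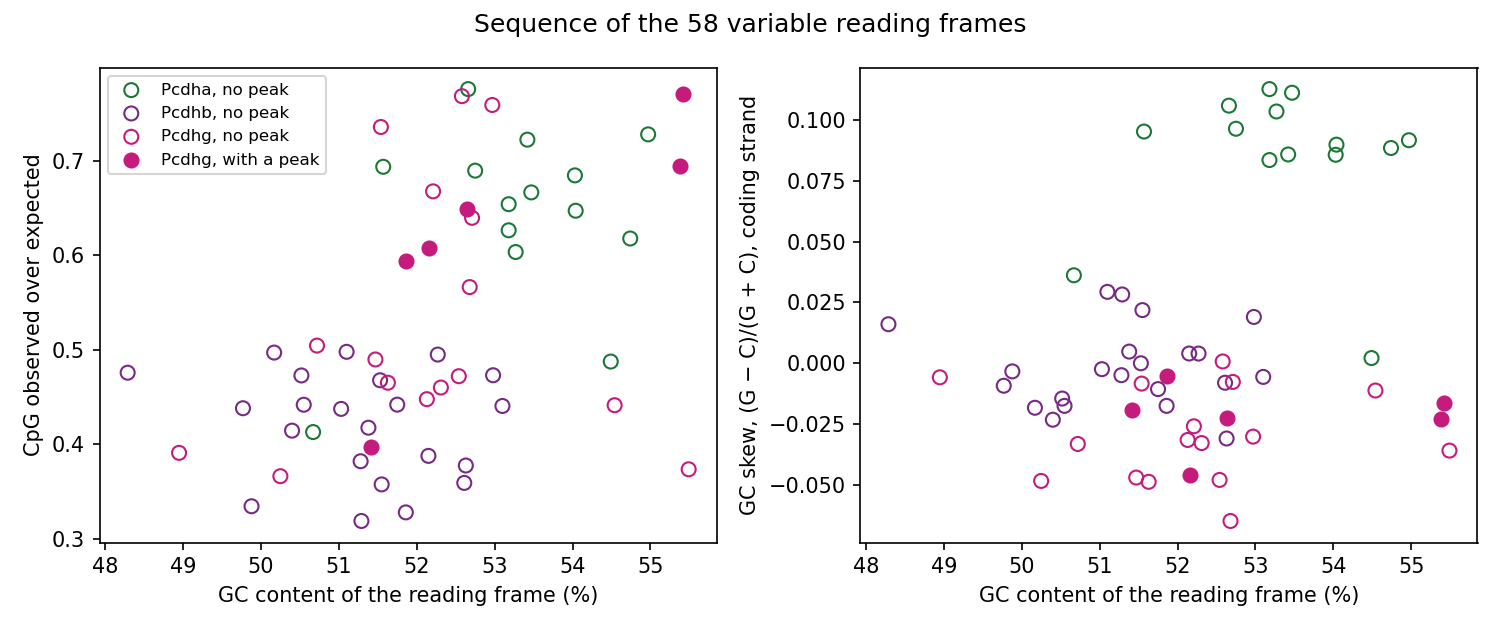
Ratio of observed to expected CpG (left) and GC skew on the coding strand (right) against the GC content of the 58 variable reading frames, coloured by cluster, with filled points for the 6 frames that overlap an R-loop peak. Filled points lie among the open points of Pcdhg, and most Pcdha frames have the highest skew without any peak.

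Similar exons can be hard to tell apart for short reads, and the reads behind the study's tracks were uniquely mapped ones. The share of 50-mers that occur once in mm9 was therefore computed for each frame. It ranged from 72.9 to 100% in Pcdha with a median of 85%, from 82.2 to 100% in Pcdhb with a median of 92.9%, and from 81.4 to 100% in Pcdhg with a median of 99.2%. Pcdhac1, Pcdhac2 and Pcdhb1 consisted wholly of 50-mers that occur once and contained 0 peaks. In Pcdhg, the median was 100% in frames with a peak and 98.1% in those without one, and B-type frames such as Pcdhgb1 (81.7%) and Pcdhgb2 (81.4%) were the least distinct. Over whole clusters, 83.2% of the 50-mers of Pcdha, 87.5% of those of Pcdhb and 96.6% of those of Pcdhg occurred once. The part of read mapping in the counts was not tested, since the read length is not given in the sources used here.

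The DNA was cut with 5 restriction enzymes before precipitation, which sets the fragments that can be recovered. The sites of these enzymes numbered 2.23 per kb in Pcdha, 1.90 in Pcdhb and 1.52 in Pcdhg, compared to 1.86 in the genome. Of the 20 edges of the Pcdhg peaks, 9 lay within 100 bp of a site, and of all 44264 edges of the list, 28.3% did. Whether edges lie near sites more often than other positions of the genome was not tested. Both edges of the Pcdhgc3 peak and both edges of the widest peak lay near a site. The Pcdhgc3 peak of 3.13 kb held no site and lay in a restriction fragment of about 3.29 kb, so that its limits within this fragment are not resolved further. The peaks at Pcdhga7, Pcdhga10 and Pcdhga11 also held no site, in fragments of about 3.02, 2.61 and 2.45 kb. Their positions relative to the start codons carry the same limit. The widest peak held 12 sites and spanned several fragments.

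The clustered genes were set beside related genes on other loci and beside other tandem gene clusters. Of 12 nonclustered protocadherin genes, 5 (41.7%) contained a peak, compared to 39.6% of all protein-coding genes, and the median number of peaks per gene was 0 in both. Pcdh1, which lies downstream of Pcdhg on the same chromosome, contained 4 peaks, which covered 24.9% of it and its start. Pcdh10 contained 1 peak and Pcdh7 contained 2, each with 1 at the start of the gene. Pcdh9 contained 2 peaks over 873 kb and Pcdh17 contained 1, and in both the start was outside peaks. Pcdh8, Pcdh11x, Pcdh12, Pcdh15, Pcdh18, Pcdh19 and Pcdh20 contained 0 peaks. Of 8 large atypical cadherin genes, 3 contained a peak: Fat1 with 9, Dchs1 with 7 and Celsr2 with 2, and their median was 0.

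Among tandem clusters, the 4 Hox clusters, which hold body patterning genes, had 0 of 40 genes with a peak. Hoxb held 1 peak between genes, and Hoxa, Hoxc and Hoxd held 0. The keratin clusters of chromosomes 11 and 15 had 1 of 51 genes with a peak, and peaks covered 0.465% and 0.644% of their bases. These keratin clusters held 6 and 7 peaks, or 5.79 and 10.2 per Mb, compared to 8.65 in the genome. By the share of genes with a peak, Pcdha and Pcdhb, with 0 of 23 genes, were near the Hox and keratin clusters. By peaks per Mb, Pcdha, Pcdhb, Hoxa, Hoxc and Hoxd had 0, below the keratin clusters, whose spans also count peaks outside keratin genes. Pcdhg had 59.7 peaks per Mb and 15.6% of its bases inside peaks. No test was made on these differences.

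**Figure D5:**
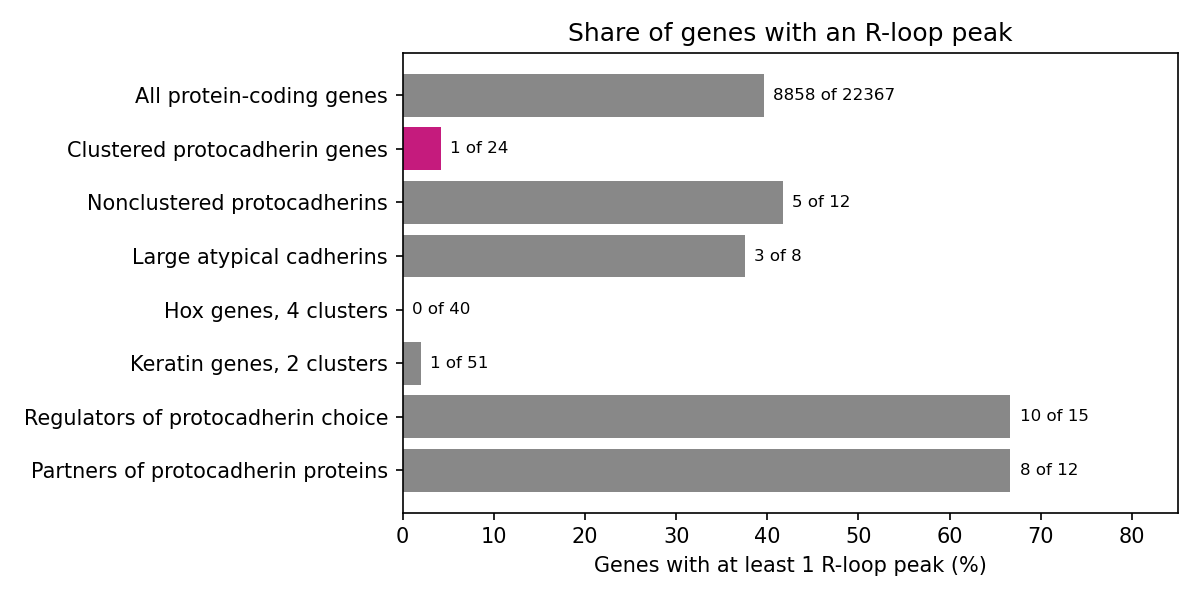
Share of genes with at least 1 R-loop peak in percent, with counts beside the bars, for all protein-coding genes, the clustered protocadherin genes and the gene lists set beside them. The clustered protocadherins (1 of 24), Hox genes (0 of 40) and keratin genes (1 of 51) lie below all protein-coding genes (39.6%). Single-exon protein-coding genes, of which 5.87% contained a peak, are not drawn.

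Peaks were also counted in genes that regulate protocadherin choice or act with the proteins. Of 15 regulators, 10 (66.7%) contained a peak, compared to 39.6% of all protein-coding genes, and the median was 1 peak per gene against 0. Dnmt3a, a de novo DNA methyltransferase, contained 11 peaks over 39.8% of its length and one at its start, while Dnmt3b contained 0. Rest, the repressor of neuronal genes, contained 3 peaks, and the cohesin subunit gene Rad21 contained 2. Ctcf, Smc1a, Smc3 and Stag2 contained 0. Of 12 partner genes found in the annotation, 8 (66.7%) contained a peak, again beside 39.6% of all genes, with a median of 2.5 peaks per gene. There were 17 in the kinase gene Fyn, 9 in Cyfip2 and 6 in Ptk2, which encodes focal adhesion kinase, while Wasf1, Abi1, Adam10 and Ncstn contained 0. In the study, active genes with R-loop peaks were longer than those without, and these lists were not matched for length. These counts describe the lists, and no test was made on them.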

How the data were processed

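DRIP-seq reads of NSPCs had been trimmed with Trim Galore 0.6.6, aligned to mm9, freed of duplicates and passed to a peak caller based on a Hidden Markov Model. The authors deposited the start and end of each peak in base pairs. The aligner and the rule that joined 3 biological replicates are not given in the sources used here, and the input library was not used here. Positions were counted from 1 and compared with GENCODE M1 and the mm9 sequence, with an overlap from 1 bp. Shares of bases exclude N. Constant exons were those shared by at least 3 transcripts, since the planned rule by genes could not be used with joined gene models. Variable exons were the longest other exon of each transcript. Of the frames, 2 were named from their neighbours, and 2 further frames in Pcdhb had no annotated gene and were left out. Members, lists and the rule for named genes (frames with a peak, C-type, first and last members, neighbours, nonclustered protocadherins, and the listed genes with the most peaks) were chosen with earlier results of these data known. The reading frames, and the naming of listed genes without a peak such as Ctcf and Pax6, were added after seeing the data. As alternatives, peaks under 1 kb were dropped, neighbours within 1 kb joined, and overlap taken by midpoint, from 500 bp or with 500 bp flanks. The overlap, frame and 50-mer steps recovered planted features in simulated data. Python 3.11.15, numpy 2.4.6 and matplotlib 3.10.9 were used.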

Additional observations from a re-analysis of the deposited data

How the results depend on the processing

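Of the 32 values recomputed under other settings, 30 stayed within 1.5 times the reported value. The number of constant exons with a peak fell from 3 to 0 by peak midpoint and to 1 with at least 500 bp of overlap, which exons of 59 and 89 bp cannot reach. Variable exons with a peak ranged from 2 to 4. Reading frames with a peak ranged from 4 to 7, in alternatives chosen after seeing the data. The manual transcript models could not be used, since 0 of 46 member transcripts are of that origin. No paired analysis was possible because 1 list was analysed. Depth is unknown, so that a member without a peak is one in which none was called.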
